A study of Mus musculus with 2 samples.

Results

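The miR-17-92 and miR-106a-363 clusters are paralogous microRNA polycistrons, in which several hairpins lie in a row on a primary transcript. They are described here in the heart of aged mice, as measured by microRNA-seq. Their 10 member genes were taken by symbol from the annotation. No count enters that rule, though earlier results of these data were known when it was set. They are Mir17, Mir19a, Mir20a, Mir19b-1 and Mir92-1 on chromosome 14, and Mir106a, Mir20b, Mir19b-2, Mir92-2 and Mir363 on chromosome X. All 10 were found among the 2202 microRNA genes of the count files, of which 316 had at least 10 sense-strand counts in each library and are called detected. Of the members, 7 were detected.

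The libraries form 1 group of 2, from heart tissue of female B6CASTF1/J mice, the first-generation hybrid of C57BL/6J and CAST/EiJ, at an age of 18 to 20 months. The labels give no treatment and no transgene. They number the libraries as biological replicates 1 and 2 with separate tissue records, yet give both the same donor record, so that separate animals are not shown and each SD covers only the spread between these libraries, which may be technical. There is no contrast between conditions, and the question is which hairpins of the clusters were counted in the aged heart, in what proportions, and how the libraries differed.

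Each hairpin of such a cluster is cut from the primary transcript by Drosha and Dicer, and the mature strand then guides Argonaute to messenger RNAs that match its seed, bases 2 to 8. The miR-17-92 cluster is best known from growth control and cancer, is active in dividing blood and progenitor cells, and has been studied in the heart for its part in the growth of heart muscle cells. Its miR-92a is known for limiting the growth of blood vessels, miR-17 and miR-20a for acting on cell cycle inhibitors, and miR-18a and miR-19 together for acting on matrix genes.

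The mature sequences sort the members into 3 seed families, and they are shown because the families, and the few bases that part paralogs, set what a read count can tell. Capitals mark the seed. The arm shown is the one each microRNA is named for, and the counts are per hairpin, with both arms together.
miR-17-5p: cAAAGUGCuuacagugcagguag
miR-106a-5p: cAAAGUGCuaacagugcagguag
miR-20a-5p: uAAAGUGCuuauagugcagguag
miR-20b-5p: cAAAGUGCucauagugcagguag
miR-19a-3p: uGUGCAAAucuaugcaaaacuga
miR-19b-3p: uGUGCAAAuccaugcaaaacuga
miR-92a-3p: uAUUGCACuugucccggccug
miR-363-3p: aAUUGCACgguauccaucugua
Each cluster also holds a miR-18 hairpin, Mir18 on chromosome 14 and Mir18b on chromosome X, which are no members and carry a 4th seed.
miR-18a-5p: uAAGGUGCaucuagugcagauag
miR-18b-5p: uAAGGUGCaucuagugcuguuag
All sequences are RefSeq's, on GRCm38.p6, and all 10 members and both miR-18 genes matched by symbol, with the RefSeq and GENCODE hairpins equal in each.

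Some paralogs differ by 1 base and some by none. Counted from 1 at the 5′ end, miR-17-5p and miR-106a-5p differ by U10A alone, miR-19a-3p and miR-19b-3p by U11C alone, and miR-20a-5p and miR-20b-5p by U1C and U10C. The miR-19b-3p sequence is the same at Mir19b-1 and Mir19b-2, and miR-92a-3p is the same at Mir92-1 and Mir92-2. A read of miR-92a-3p can thus be placed at 1 of those loci only by bases beyond the mature sequence, and reads that mapped to more than 1 place, 43.9% of all reads of replicate 1 and 43.2% of replicate 2, entered no gene count. The loci are shown with 6 bases on each side of the mature sequence, and here capitals mark the bases that differ between the copies.
Mir92-1: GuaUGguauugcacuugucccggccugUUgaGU
Mir92-2: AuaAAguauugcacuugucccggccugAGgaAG
Mir19b-1: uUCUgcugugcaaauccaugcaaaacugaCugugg
Mir19b-2: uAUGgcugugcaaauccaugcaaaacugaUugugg
The run shared by the miR-92a loci is 22 nt long and that of the miR-19b loci 25 nt. The first base after the mature sequence already differs, by U22A between Mir92-1 and Mir92-2 and by C24U between Mir19b-1 and Mir19b-2. No other member shared 20 nt or more with another annotated microRNA hairpin. The search covered the annotated hairpins and not the genome.

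Mir17 opens the miR-17-92 cluster on the plus strand of chromosome 14 (mm10, 115043671 to 115043754), and Mir92-1 closes it (115044427 to 115044506). The 6 hairpins of the cluster, Mir18 included, lie within 836 nt, and all of them lie in an exon of Mir17hg, a long noncoding RNA gene. The 6 hairpins of the miR-106a-363 cluster lie within 875 nt of the minus strand of chromosome X, in the order Mir106a (52742503 to 52742567), Mir18b, Mir20b (52742113 to 52742192), Mir19b-2 (52741983 to 52742066), Mir92-2 (52741838 to 52741928) and Mir363 (52741693 to 52741767). Mir106a overlaps the end of the annotated noncoding transcript Kis2 by 5 nt, and the others lie beyond it. Between Mir17 and Mir92-1 lie Mir18, Mir19a (115044000 to 115044081), Mir20a (115044157 to 115044263) and Mir19b-1 (115044305 to 115044391).

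Depth was similar in both libraries. Sense-strand counts of genes came to 3383676 in replicate 1 and 3676084 in replicate 2, and levels are given as CPM, counts scaled to a total of 1000000 sense counts. Counts of short RNAs are not proportional to the length of the hairpin, so CPM was not divided by length. For a gene with no count, 3 counts set the highest level still allowed, which was 0.887 CPM in replicate 1 and 0.816 in replicate 2. All intervals are 95% intervals and, like these limits, cover counting error only. Heart muscle markers were present, Mir208a at 1418 ± 241 CPM and Mir499 at 3772 ± 289.9 CPM (SD, n = 2), and Mir122 of liver stood at 20.5 ± 4.81 CPM (SD, n = 2).

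The chromosome 14 cluster was far above its X-linked paralog. Its 5 members summed to 19047 counts in replicate 1 and 16502 in replicate 2, or 5629 and 4489 CPM, a mean of 5059 ± 806 CPM (SD, n = 2). The 5 members on chromosome X summed to 929 and 766 counts, or 275 and 208 CPM, a mean of 241 ± 46.8 CPM (SD, n = 2). The ratio of the clusters was 20.5 in replicate 1 (exact interval 19.2 to 21.9) and 21.5 in replicate 2 (20.0 to 23.2), so that the libraries did not differ in it beyond counting error. This steady ratio rests on the miR-92a loci, whose shared mature sequence makes their counts uncertain. Without Mir92-1 and Mir92-2 it was 128 in replicate 1 (97.8 to 172) and 36.7 in replicate 2 (32.4 to 41.7). The cluster on chromosome 14 was the higher one in both libraries either way, and the size of the gap then differed between them.

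**Figure D1:**
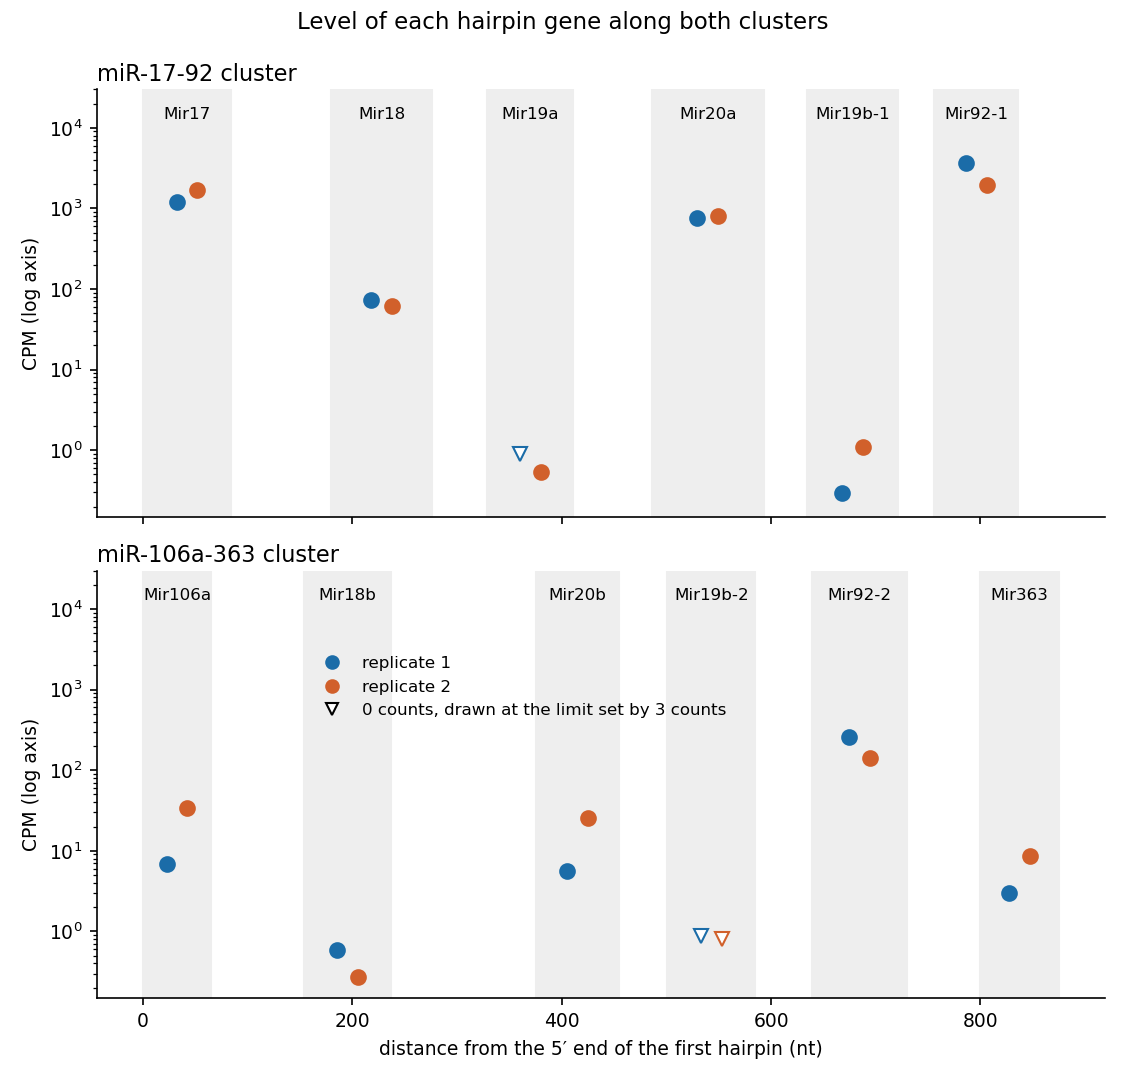
Level in CPM (log axis) of each hairpin gene against its distance from the 5′ end of the first hairpin, for the miR-17-92 cluster (top) and the miR-106a-363 cluster (bottom); grey bands are the hairpins, filled points are the 2 libraries, and open triangles mark 0 counts, drawn at the limit that 3 counts set. The miR-17 and miR-92 hairpins of the upper cluster lie between 760 and 3657 CPM, the miR-19 hairpins of both clusters near or below 1.09 CPM.

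Levels within a cluster ranged over orders of magnitude. Mir92-1 was the most counted member, with 12373 counts in replicate 1 and 7257 in replicate 2, or 3657 and 1974 CPM, and rank 40 of the 316 detected genes by mean. Mir17 followed with 4101 and 6245 counts, or 1212 and 1699 CPM (rank 55). Mir20a had 2572 and 2994 counts, or 760 and 814 CPM (rank 73). Mir92-1 was thus lower in replicate 2 than in replicate 1 and Mir17 higher, while Mir20a lay close together in both. Mir92-1 took 64.1% of the cluster's counts, Mir18 included, in replicate 1 (63.5 to 64.8, a Wilson interval), and 43.4% (42.6 to 44.1) in replicate 2. Mir17 took 21.3% (20.7 to 21.8) and 37.3% (36.6 to 38.1). Mir18, the hairpin next to Mir17, had 246 and 227 counts, or 72.7 and 61.8 CPM, and the count of Mir17 was 16.7 times that of Mir18 in replicate 1 (exact interval 14.7 to 19.0). In replicate 2 it was 27.5 times as high (24.1 to 31.5).

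On chromosome X the miR-92 hairpin took a still larger share of the counts. Its mature sequence is the same as that of Mir92-1, which makes its counts uncertain. How many of them came from reads of Mir92-1 was not tested. Mir92-2 had 877 counts in replicate 1 and 514 in replicate 2, or 259 and 140 CPM (rank 105). It took 94.2% of the cluster's counts, Mir18b included, in replicate 1 (92.5 to 95.5, Wilson), against 67.0% (63.6 to 70.2) in replicate 2. Mir106a had 23 and 125 counts, or 6.80 and 34.0 CPM (rank 217). Mir20b had 19 and 95 counts, or 5.62 and 25.8 CPM (rank 229), beside 1 antisense read in replicate 1, the only one of any member. Mir363, found in the X-linked cluster and not in its paralog, had 10 and 32 counts, or 2.96 and 8.70 CPM (rank 287), and so stood exactly at the detection limit in replicate 1. These 3 hairpins were all higher in replicate 2, and Mir92-2 was higher in replicate 1. Mir18b had 2 counts and 1 count.

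All 3 miR-19 hairpins were nearly uncounted. Mir19a had 0 counts in replicate 1 and 2 in replicate 2. Mir19b-1 had 1 and 4, and Mir19b-2 had 0 in both libraries. For the miR-19b pair, the mature sequence is held by both loci, and its reads may lie among the multimapping reads, which the files do not assign to genes. Mir19a is different in this respect: no other annotated hairpin holds miR-19a-3p exactly, and its longest run shared with another hairpin was 13 nt, the same length as for Mir17. Its flanking hairpins Mir18 and Mir20a were both detected. At the limit set by 3 counts, Mir17 was 1367-fold higher than Mir19a in replicate 1, and the exact interval of that ratio began at 1111. In replicate 2 the ratio, on 2 counts of Mir19a, was 3123 (exact interval 864 to 25789). Where 1 mismatch is allowed, a read of miR-19a-3p also matches both miR-19b loci, just as a read of miR-17-5p, from the well counted Mir17, also matches Mir106a, and the sources used here do not state how many mismatches the authors allowed. The effect of that on the Mir19a count was not tested.

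The order of the detected members by mean level was Mir92-1, Mir17, Mir20a, Mir92-2, Mir106a, Mir20b and Mir363. Most neighbours in it were told apart within each library beyond counting error. The places of Mir92-1 and Mir92-2 rest on counts that leave out reads fitting both loci, which the intervals do not cover. The ratio of Mir92-1 to Mir17 was 3.02 in replicate 1 (exact interval 2.91 to 3.13) and 1.16 in replicate 2 (1.12 to 1.20). Mir17 over Mir20a was 1.59 (1.52 to 1.68) and 2.09 (2.00 to 2.18), and both libraries kept this step of the order. Mir20a over Mir92-2 was 2.93 (2.72 to 3.17) and 5.82 (5.30 to 6.41). Mir92-2 over Mir106a was 38.1 (25.2 to 60.5) and 4.11 (3.38 to 5.04), the widest gap between neighbours in replicate 1. Mir106a and Mir20b were not told apart, with ratios of 1.21 (0.631 to 2.35) and 1.32 (1.00 to 1.74). Mir20b over Mir363 was 1.90 (0.841 to 4.57) in replicate 1, which includes equality, and 2.97 (1.97 to 4.58) in replicate 2. Across the SD between libraries the top is less clear, since the mean of Mir92-1, 2815 ± 1190 CPM, and that of Mir17, 1455 ± 344 CPM (SD, n = 2), lie within the sum of their SDs. By mean, the genes next to Mir92-1 were Mir34a, at 2923 ± 508 CPM, and Mir21a, at 2879 ± 1241 CPM, above it, and Mir674, at 2812 ± 379 CPM, and Mir221, at 2285 ± 861 CPM, below it (SD, n = 2). Those next to Mir92-2, at 199.5 ± 84.4 CPM, were Mir700 (221 ± 8.10), Mir411 (217 ± 59.2), Mir203 (193 ± 173) and Mir193b (188 ± 48.7 CPM). These 8 genes were chosen for closeness in mean, and none differed in mean from its member by more than the member's own SD.

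Paralogs of the same position gave different ratios by seed. Mir92-1 over Mir92-2 was 14.1 in replicate 1 (exact interval 13.2 to 15.1) and 14.1 in replicate 2 (12.9 to 15.5), although both loci were 2.02-fold apart between the libraries. Mir17 over Mir106a was 178 (119 to 282) and 49.96 (41.9 to 60.1). Mir20a over Mir20b was 135 (86.5 to 225) and 31.5 (25.7 to 39.1). The intervals of the libraries overlap for the miR-92a pair and not for the miR-17 and miR-20 pairs. The miR-92a pair shares the whole mature sequence, and how many counts of Mir92-2 came from reads of Mir92-1 was not tested. The equal ratio therefore does not show that both loci changed together. In the other direction, Mir106a came to 0.561% of the counts of Mir17 in replicate 1 and 2.00% in replicate 2, and Mir20b to 0.739% and 3.17% of those of Mir20a. Since miR-106a-5p is parted from miR-17-5p by U10A alone, and no error rate of the reads is known here, how much of the Mir106a count came from reads of Mir17 was not tested. Mir92-1 over Mir363, which closes the X-linked cluster, was 1237 (673 to 2581) and 226.8 (160 to 332). Within the X-linked cluster, Mir106a over Mir363 was 2.30 (1.05 to 5.41) and 3.91 (2.63 to 5.95), with overlapping intervals.

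**Figure D2:**
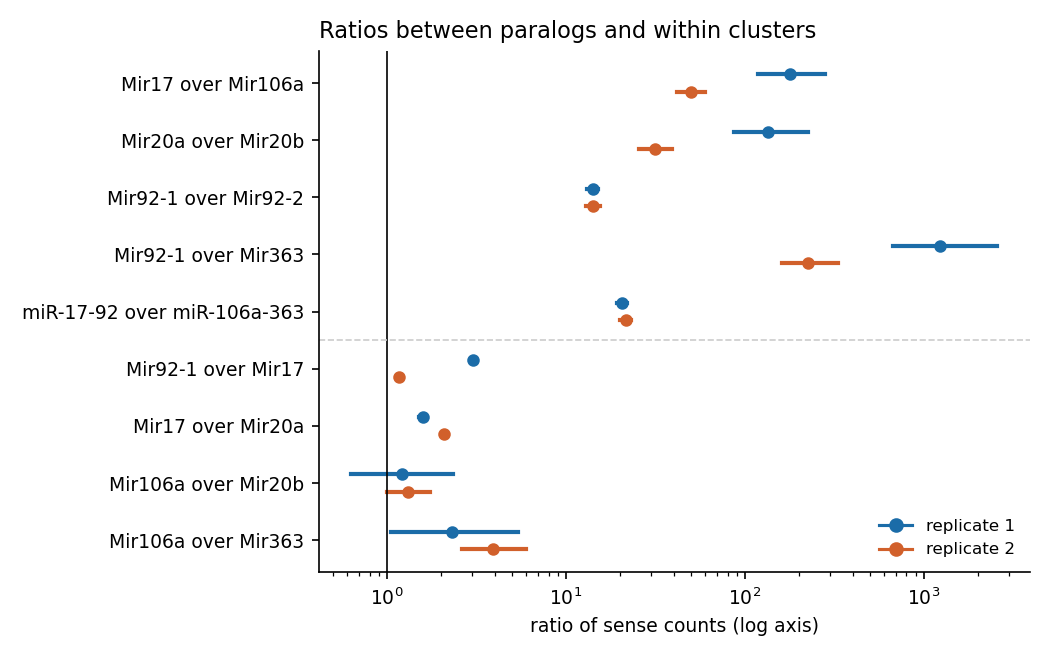
Ratio of sense counts (log axis) in replicate 1 and replicate 2 for paralogs of both clusters (above the dashed line) and for pairs within 1 cluster (below it); points are ratios, lines are exact 95% intervals, and the vertical line marks equality. The ratio of Mir92-1 to Mir92-2 is 14.1 in both libraries, while Mir17 over Mir106a and Mir20a over Mir20b are higher in replicate 1 with intervals that do not overlap. Mir92-1 and Mir92-2 share the same mature sequence, which makes their counts uncertain.

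Each detected gene was tested for a difference between the libraries by an exact binomial test, 2-sided, on TMM-scaled sense counts, with Benjamini-Hochberg adjustment over all 316 genes and a threshold of 0.05. TMM (trimmed mean of M-values) scales each library by the bulk of its genes. This compares 2 libraries and not conditions, and it sets them against counting noise alone. Of the 7 detected members, 4 were higher in replicate 2 and 2 were higher in replicate 1. Over all 316 genes the test called 60.4% in either direction, 33.2% higher in replicate 2 and 27.2% higher in replicate 1. With so many genes called, a call alone sets a member little apart. The median log2 ratio of replicate 2 over replicate 1 was 0.36 over the detected members and 0.05 over all tested genes. In absolute size the medians were 1.01 and 0.45, and 5 of the 7 members were called at 2-fold or more, against 21.2% of all genes. Mir92-1 and Mir92-2 lay at that limit: by library totals both had a log2 ratio of -0.89, short of 2-fold.

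The miR-17 family members differed upwards or little. Mir106a had the widest difference of any member, with a log2 ratio of 2.20 (exact interval 1.55 to 2.91; exact binomial test, adjusted p = 2.64e-14), or 4.59-fold. Mir20b followed at 2.08 (1.36 to 2.87; exact binomial test, adjusted p = 2.37e-10). Mir17 was higher in replicate 2 by a smaller step, 0.36 (0.31 to 0.42; exact binomial test, adjusted p = 7.83e-36). Mir20a had a log2 ratio of -0.02 (-0.10 to 0.05; exact binomial test, adjusted p = 0.616), and its sign depends on the scaling. With library totals it became 0.10 and was called higher in replicate 2 (exact binomial test, adjusted p = 0.0182, within a range of 0.0182 to 1 over the alternatives).

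The miR-92a loci went the other way. Mir92-1 had a log2 ratio of -1.01 (exact interval -1.06 to -0.97), with a p-value too small for the computer's number format, and Mir92-2 had -1.01 (-1.17 to -0.86; exact binomial test, adjusted p = 1.84e-37). Mir363, of the same seed, was higher in replicate 2, at 1.43 (0.37 to 2.62; exact binomial test, adjusted p = 0.00886) on 10 and 32 counts. Mir18, counted beside them, had a log2 ratio of -0.36 (exact binomial test, adjusted p = 0.0136), which library totals did not call (adjusted p = 0.119, within a range of 0.00376 to 0.119 over the alternatives).

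Each cluster thus held hairpins called in opposite directions, Mir17 against Mir92-1 on chromosome 14, and Mir106a, Mir20b and Mir363 against Mir92-2 on chromosome X. Ratios within a library need no scaling between libraries, and those of Mir92-1 to Mir17 and of Mir92-2 to Mir106a, given above, had intervals that do not overlap between the libraries. These contrasts and ratios all include a miR-92a locus, and reads that fit both of those loci entered no gene count. Whether the share of such reads differed between the libraries was not tested. On chromosome 14, proportions also differed without a miR-92a locus: Mir17 over Mir20a and Mir17 over Mir18, given above, had intervals that do not overlap between the libraries. Mir17 and Mir18 were called in opposite directions with TMM, though library totals did not call Mir18.

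**Figure D3:**
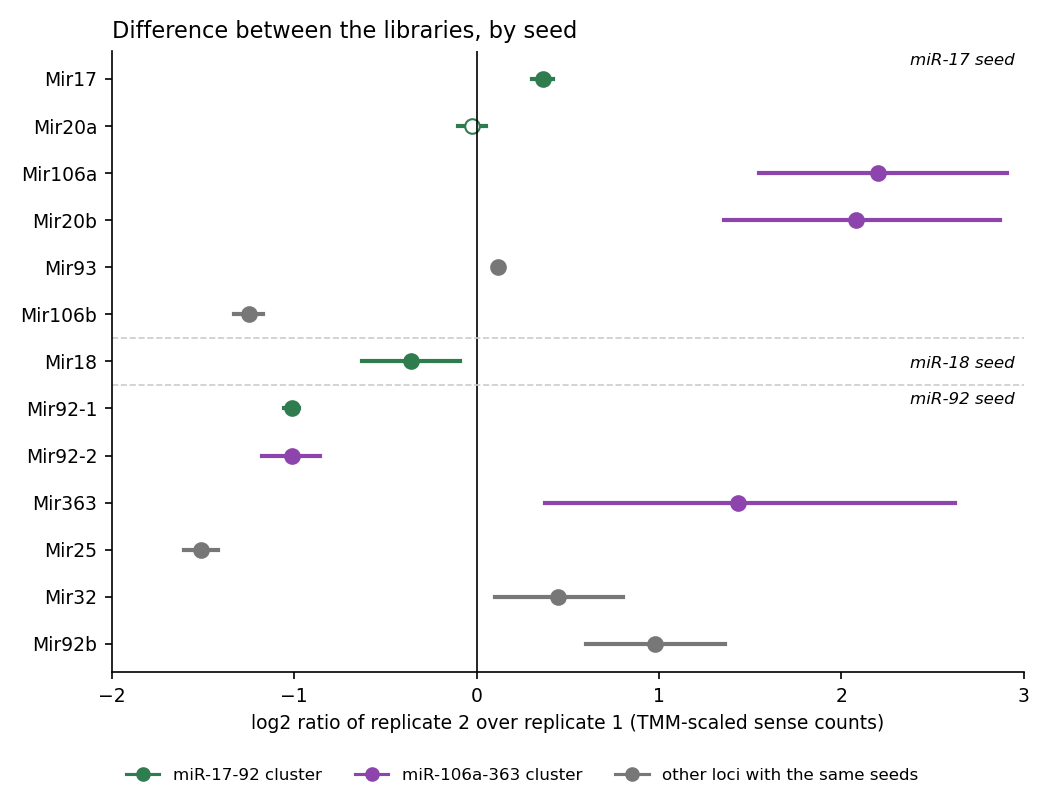
Log2 ratio of replicate 2 over replicate 1 from TMM-scaled sense counts for every tested locus with a miR-17, miR-18 or miR-92 seed; points are ratios, lines are exact 95% intervals, filled points were called by the exact binomial test and the open point was not, and dashed lines part the seeds. Mir106a, Mir20b and Mir363 lie to the right, between 1.43 and 2.20, and Mir92-1 and Mir92-2 lie together at -1.01.

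Other loci with these seeds set the clusters in proportion. The paralogous cluster in Mcm7 on chromosome 5, with Mir106b, Mir93 and Mir25, summed to 6608 ± 229 CPM (SD, n = 2). Mir93, of the miR-17 seed, had 15934 and 20479 counts. This was 3.89 times the count of Mir17 in replicate 1 (exact interval 3.75 to 4.02), and 3.28 times (3.19 to 3.37) in replicate 2. Of all counts at the 7 loci whose mature microRNA has the miR-17 seed, the miR-17-92 cluster gave 25.2% in replicate 1 (24.7 to 25.7, Wilson), against 29.0% (28.5 to 29.5) in replicate 2. The miR-106a-363 cluster gave 0.159% (0.117 to 0.214) and 0.691% (0.605 to 0.788). For the miR-92 seed the picture was inverted in these counts, which leave out reads that fit both miR-92a loci. Of the counts at its 7 loci, the miR-17-92 cluster, through Mir92-1 alone, gave 74.6% (73.9 to 75.2) and 76.5% (75.6 to 77.4), and the miR-106a-363 cluster gave 5.35% (5.02 to 5.70) and 5.76% (5.31 to 6.24). The miR-17 seed summed to 8247 ± 591 CPM and the miR-92 seed to 3741 ± 1642 CPM (SD, n = 2), with reads that map to several loci left out of both.

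**Figure D4:**
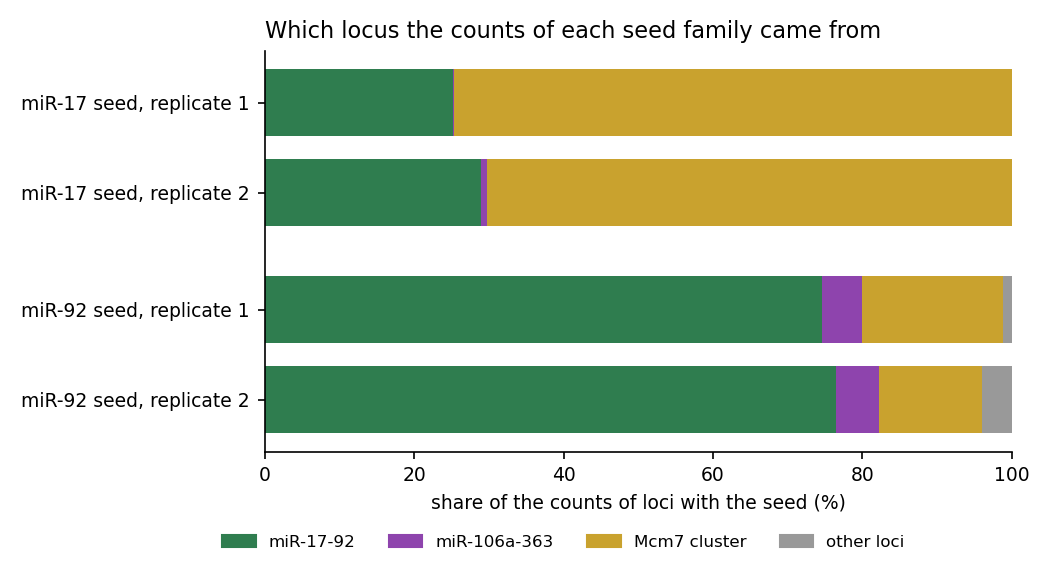
Share (%) of the sense counts of all loci with a miR-17 or a miR-92 seed that came from the miR-17-92 cluster, the miR-106a-363 cluster, the Mcm7 cluster or other loci, for each library. The miR-17-92 cluster holds 25.2% and 29.0% of the miR-17 seed but 74.6% and 76.5% of the miR-92 seed. Reads that map to several loci, such as those that fit both miR-92a loci, are left out.

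Differences between the libraries in those relatives did not follow the seed throughout. Of 7 relatives fixed with the members (Mir18, Mir18b, Mir106b, Mir93, Mir25, Mir32 and Mir367), 5 could be tested, of which 2 were called higher in replicate 2 and 3 higher in replicate 1. Over all 316 tested genes, 33.2% and 27.2% were called in these directions. Mir18, 1 of the 3, was not called with library totals. Mir106b, of the miR-17 seed, had a log2 ratio of -1.25 and Mir25, of the miR-92 seed, -1.51, and both lie in Mcm7 beside Mir93, at 0.12. Mir32, on chromosome 4, had 0.45, and Mir367, a microRNA of pluripotent cells, had 0 counts and 1 count. A pair of further loci came from a search of RefSeq for the seeds: Mir92b, at a log2 ratio of 0.98 with 85 and 198 counts, and Mir6383, at 0 in both libraries.

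Markers of blood and vessel cells differed between the libraries as well. In bulk tissue, fewer cells of a type and less of a microRNA per cell cannot be told apart. The 5 white blood cell markers (Mir142, Mir150, Mir155, Mir223 and Mir146), all detected, summed to 8644 CPM in replicate 1 and 16363 CPM in replicate 2, and all 5 were called higher in replicate 2, with log2 ratios of 0.07 to 1.60. The lowest ratio, 0.07, was that of Mir155, and whether its call holds under other scalings was not tested. The 4 erythroid markers (Mir144, Mir451a, Mir486 and Mir3107) summed to 4237 and 2011 CPM, with 3 of them called higher in replicate 1 and Mir3107 at a log2 ratio of 0.28. The endothelial marker Mir126a stood at 129043 and 57714 CPM, with Mir126b at 4 counts and 1 count, and was called higher in replicate 1. The 3 heart muscle markers (Mir208a, Mir208b and Mir499) summed to 5624 and 4831 CPM, and all 3 were called higher in replicate 1. Mir17, Mir106a, Mir20b and Mir363 thus lay on the side of the white blood cell markers, and Mir92-1 and Mir92-2 on that of Mir126a, the heart muscle markers and 3 of the 4 erythroid markers. With 1 ratio per gene, every called gene lies on 1 of these sides. Over all 316 tested genes, 33.2% were called higher in replicate 2 and 27.2% higher in replicate 1, so a shared side alone sets a member little apart. The part of these cell types in the members' differences was not tested. The 9 markers of pluripotent cells were Mir302a, Mir302b, Mir302c, Mir302d, Mir290a, Mir291a, Mir294, Mir295 and Mir367. Of these, 2 were detected, 3 (Mir290a, Mir291a and Mir295) had 0 counts in both libraries, and the list summed to 10.9 and 7.89 CPM. Whether the tissue held other dividing cells was not tested.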

How the data were processed

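MicroRNA-seq was made from total RNA of heart tissue in 2 libraries, per the labels' protocols. The values are raw counts that the authors deposited for each microRNA gene, on mm10 with GENCODE M21, per the readme deposited with each library. Not given in the sources used here are the aligner, the counter and the mismatches allowed. The files hold 3 columns of counts (either strand, sense, antisense, judged from the values); the sense column was used. The 4 rows that name no gene (unmapped 14.9% and 16.2%, multimapping 43.9% and 43.2%, featureless 5.07% and 5.75%, ambiguous 0% of reads in replicates 1 and 2) stayed out of totals. CAST/EiJ variants may lower counts on mm10, which was not tested.

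Symbols and positions came from GENCODE M21, and mature sequences from RefSeq. Effective library sizes were TMM (edgeR 4.0.16, R 4.3.3). The exact binomial test used scipy 1.17.1 with a Benjamini-Hochberg threshold of 0.05 and was tested on simulated data. Those data held counting noise and set differences only, so they do not show how the test behaves with other spread between libraries. Setting 1 library against the other leaves no residual degrees of freedom. Alternatives used library totals, DESeq2 1.42.0 size factors, minimum counts of 1, 5 or 100, reads on either strand, thinning, other sums and each library left out. The named genes are the 10 members, 7 fixed relatives, and for Mir92-1 and Mir92-2 the 2 genes on either side by mean; Mir92b and Mir6383 came from the seed search. Ratios beyond the 10 planned pairs, and the sums with Mir18 and Mir18b, were added after values were seen. Members and lists were chosen with earlier results of these data known.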

Additional observations from a re-analysis of the deposited data

How the results depend on the processing

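Of 39 alternative values of the 7 members' log2 ratios, 37 kept direction and call. The exceptions were Mir20a with library totals (0.10) and with a minimum of 5 counts (0.0024), whose cause was not tested beyond the change of scaling. Over all tested genes the median log2 ratio was 0.05, against 0.18 by library totals and 0 by DESeq2. Members called higher in replicate 2 numbered 4, 5 with library totals, and 1 with a minimum of 100 counts, where 4 members remain to be tested. Detected members numbered 7, and 8 with a minimum of 1 count. The summed level of the miR-17-92 cluster became 6796 CPM with reads on either strand, where ambiguous reads leave the totals, 1799 when scaled to 1000000 of all reads, and 2244 CPM without Mir92-1. That of the miR-106a-363 cluster became 325 CPM and 85.9 by the first and second of these. The cluster ratio, 21.02 as a mean of the libraries, became 82.5 without the miR-92a loci and 82.5 with only members that share no stretch of 20 nt. Adding Mir18 and Mir18b, an alternative chosen after seeing the data, gave 21.3. Counts of members sharing a stretch were 4 at 18, 20 and 22 nt. Each library left out gives the other's value, printed above. No paired analysis was possible because the labels give 1 group. Depth limits Mir363, Mir106a and Mir20b, with 10 to 23 counts in replicate 1.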
